A study of Mus musculus with 5 samples.

Results

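The 10 genes here are interferon-induced genes with a known antiviral role: Ifit1, Ifit2, Ifit3, Isg15, Rsad2 (viperin), Mx1, Mx2, Cmpk2, Rtp4 and Bst2 (tetherin). They were chosen by symbol for this known role, with earlier results of these data known. All 10 were found among the 22815 gene symbols of the deposited expression table. RNA came from cells washed out of the peritoneal cavity of mice aged 8 weeks and was sequenced by Smart-seq2, a method for small amounts of polyadenylated RNA. The study profiled 5 libraries in 3 groups: 1 library from wild-type (WT) C57BL/6 mice that received PBS, 2 from WT mice that received pristane and 2 from pristane-treated mice whose genotype is labelled Irf8KO. Pristane is a hydrocarbon oil that causes lasting sterile inflammation in the peritoneum and, in C57BL/6 mice, bleeding into the lung. Irf8 is a transcription factor needed for monocyte and dendritic cell development. No Irf8KO mice given PBS were included in the samples used here. The kind of Irf8 allele, the pristane dose, the time after injection and the number of animals behind each library are not stated in the labels. P-values here therefore reflect the spread between libraries, which may be technical.

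Type I interferons bind the receptor Ifnar1-Ifnar2, whose kinases Jak1 and Tyk2 pass the signal on to transcription factors. A complex that contains Stat2 and Irf9 then binds the interferon-stimulated response element (ISRE) in the promoters of its target genes. Pristane-induced inflammation is known for a strong response of this kind in peritoneal cells, in which inflammatory monocytes are a known source of interferon. Among the genes described, the Ifit proteins bind foreign RNA and block its translation, and Isg15 is a ubiquitin-like protein that is attached to other proteins. Rsad2 makes a nucleotide analogue that ends viral RNA chains, and Cmpk2 is a nucleotide kinase of mitochondria. Bst2 tethers budding virus to the cell surface. Mx1 and Mx2 are dynamin-like GTPases that trap viral components. The C57BL/6 strain carries defective alleles of both Mx genes, and RefSeq lists both as transcribed pseudogenes on GRCm38.p6, so their RNA here does not stand for a working protein.

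The genes lie in a few places in the genome. In the RefSeq gene table for GRCm38.p6, Ifit2, Ifit3 and Ifit1 stand in 1 cluster on chromosome 19 together with Ifit1bl1, Ifit3b and Ifit1bl2, and Ifit2 and Ifit3 are next to each other. Rsad2 and Cmpk2 are direct neighbours on chromosome 12. Mx1 and Mx2 stand on chromosome 16 with Fam3b between them, and Rtp4 is on the same chromosome. Isg15 is on chromosome 4 and Bst2 on chromosome 8. The Ifit genes resemble each other in sequence and may share fragments, as may Mx1 and Mx2.

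Promoter sequences of 5 of the 10 genes held the core letters of the ISRE, the element through which interferon is known to act. RefSeq promoter windows on GRCm38.p6 were matched by symbol for 7 of the 10 genes (8 windows, as Ifit2 has 2 start sites), and Mx1, Mx2 and Rtp4 had none. The ISRE core was searched as GAAA, any 2 bases and GAAA again, on both strands in the 250 bases before the start. It was found in the windows of 5 genes: 3 overlapping copies in Isg15, 2 overlapping copies in Bst2, 2 separate copies in each of Ifit1 and Ifit3, and 1 in Rsad2. Of all 32851 promoter windows of that length, 978 (2.98%) held the motif, against 5 of the 8 windows here (62.5%). The motif was not particular to these genes. In related lists described below it was in 4 of 5 windows of Ifit relatives and 11 of 20 of interferon ligands. It was in 7 of 26 windows of other antiviral effectors, 2 of 12 of receptor and signalling genes and 0 of 4 of Isg15 conjugation genes. The core of the GAS element (gamma-activated sequence) was searched as TTCNNNGAA and was found in 1 Ifit2 window and in Bst2, where it overlaps the first ISRE match, against 7.02% of all windows. No ISRE core match was found in the windows of Ifit2 and Cmpk2, which says only that these letters are not in those bases. The 160 bases before the start of the 5 genes with a match are shown because the position and spacing of the element differ between them. They are written 5′ to 3′ on the strand of the gene, with bases of an ISRE core match in capitals.
Isg15 (chr4:156200819-156200978, minus strand): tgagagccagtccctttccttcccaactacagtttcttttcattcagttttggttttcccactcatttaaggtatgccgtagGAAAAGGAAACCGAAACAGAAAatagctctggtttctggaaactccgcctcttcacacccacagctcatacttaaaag
Ifit1 (chr19:34640729-34640888, plus strand): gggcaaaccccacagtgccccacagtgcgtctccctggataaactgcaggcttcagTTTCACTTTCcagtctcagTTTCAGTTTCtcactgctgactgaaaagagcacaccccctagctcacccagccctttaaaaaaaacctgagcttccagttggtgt
Ifit3 (chr19:34583369-34583528, plus strand): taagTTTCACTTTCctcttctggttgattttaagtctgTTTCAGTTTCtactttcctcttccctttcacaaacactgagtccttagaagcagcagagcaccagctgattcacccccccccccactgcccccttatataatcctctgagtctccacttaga
Rsad2 (chr12:26456453-26456612, minus strand): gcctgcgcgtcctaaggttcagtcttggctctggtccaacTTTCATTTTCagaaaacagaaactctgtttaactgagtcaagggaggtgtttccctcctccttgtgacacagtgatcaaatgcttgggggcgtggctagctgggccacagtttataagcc
Bst2 (chr8:71537473-71537632, minus strand): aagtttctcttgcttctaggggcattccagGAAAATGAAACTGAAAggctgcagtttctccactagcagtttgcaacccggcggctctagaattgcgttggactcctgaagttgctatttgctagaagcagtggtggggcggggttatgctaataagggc

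The matches lay at different distances from the start. In Isg15 the 3 overlapping matches began 78, 72 and 66 bases before it. In Ifit1 they began 104 and 85 bases before the start and in Ifit3 156 and 122 bases before it, and both genes carry the same pair of letter strings in the same order, TTTCACTTTC and then TTTCAGTTTC. The single Rsad2 match began at 120 bases, and those of Bst2 at 130 and 124 bases. A match is a description of the letters and not of a bound site.

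**Figure D1:**
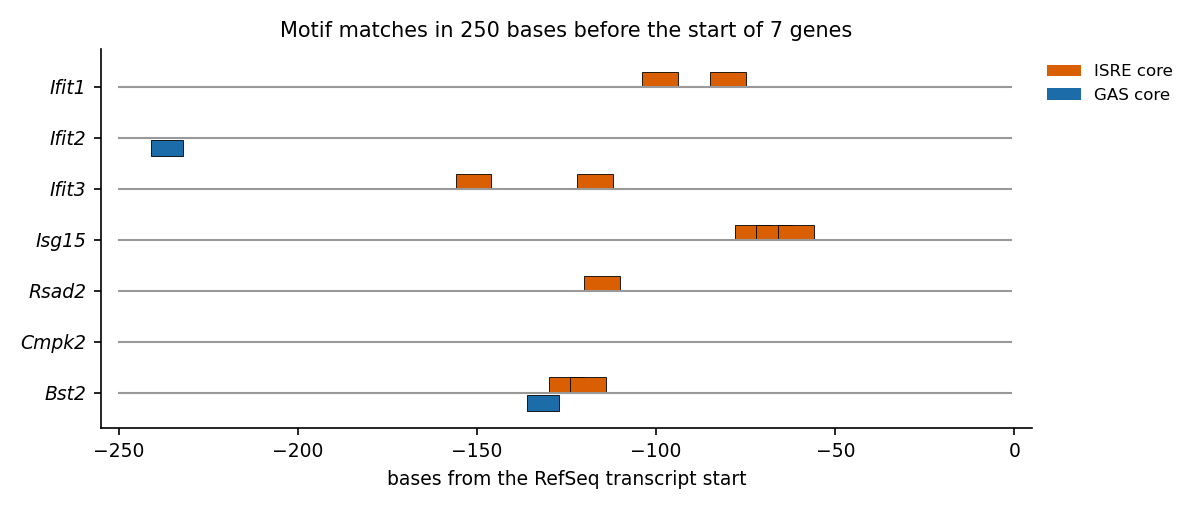
Positions of motif matches in the 250 bases before the RefSeq start of the 7 genes with a promoter window. The x axis gives bases from the transcript start, orange boxes are ISRE core matches and blue boxes GAS core matches, and both Ifit2 windows are drawn on 1 line. The orange boxes lie between 156 and 57 bases before the start, and Ifit2 and Cmpk2 have none.

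The values are FPKM, fragments scaled to transcript length and to sequencing depth, so levels can be compared between genes. The sum over all genes lay between 451694 and 582696 FPKM, and 9105 to 9849 genes per library reached 1 FPKM. From the steps between low values, 1 fragment on a transcript of 1 kb was estimated at 0.436 FPKM with PBS, 0.244 and 0.346 FPKM with WT pristane and 0.196 and 0.296 FPKM in the Irf8KO-labelled libraries. Irf8 itself, the gene named in the genotype, stood at 32.4 FPKM with PBS, 63.3 and 48.7 FPKM with WT pristane and 121 and 59.4 FPKM in the Irf8KO-labelled libraries (a log2 change of 0.60 ± 0.41 SE between the pristane groups, limma adjusted p = 0.471). Irf8 RNA was thus no lower in the Irf8KO-labelled libraries, and values summed over a gene cannot tell its exons apart. Sex-linked transcripts differed too: the Y-linked Eif2s3y was listed at 0 in the PBS library and WT pristane replicate 2 and stood at 12.9 to 25.6 FPKM in the other 3 libraries. The part of sex in the results was not tested.

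With PBS alone the antiviral genes were quiet apart from Bst2. Bst2 stood highest at 54.3 FPKM, followed by Rtp4 at 17.0 and Isg15 at 8.34 FPKM. Ifit1 (1.86), Ifit2 (1.83), Cmpk2 (1.50) and Rsad2 (1.47 FPKM) formed a middle group, and Mx1 (0.660), Mx2 (0.561) and Ifit3 (0.234 FPKM) were below 1 FPKM. At the estimated depth and the length of the longest annotated transcript, the Ifit3 value corresponds to about 0.94 fragments and the Ifit1 value to about 11, so the PBS levels of the low genes rest on few fragments. The PBS group is 1 library and has no replicate check.

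After pristane in WT mice the antiviral genes rose, which addresses what the oil does to the mixed peritoneal cells of normal mice. In the fit over all genes, 8 of 10 rose with an adjusted p under 0.05, beside 5.18% of the 11117 genes tested, and none fell (limma, Benjamini-Hochberg). Both WT pristane libraries were above the PBS library for all 10 genes, as they were for 37.3% of all genes. The median change of the 10 genes was 3.55 on the log2(FPKM + 1) scale, beside -0.07 over all genes tested. This scale, used for every log2 change here, understates the change of genes below a few FPKM. The PBS library was taken to vary as the pristane pairs did. Leaving out any 1 pristane library ended all 8 calls in this comparison, with adjusted p-values of the genes tested from 0.0726 to 0.593. The summed level of the 10 genes went from 87.7 FPKM to 887 and 926 FPKM. Summed cell type markers also differed between PBS and WT pristane. B cell markers went from 2931 to 50.2 and 11.4 FPKM, and large peritoneal macrophage markers from 2594 to 143 and 232 FPKM. Mature neutrophil markers went from 171 to 17180 and 15561 FPKM, and inflammatory monocyte markers from 1710 to 2742 and 7029 FPKM. The part of these cells in the rise was not tested. In bulk RNA, more cells that express a gene and more RNA per cell cannot be told apart.

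Rsad2 had the largest rise of the 10. Its level was 1.47 FPKM with PBS and 130 and 169 FPKM with WT pristane, a log2 change of 5.92 ± 0.26 (SE) with a limma adjusted p of 0.0201. Its chromosomal neighbour Cmpk2 went from 1.50 FPKM to 31.3 and 47.7 FPKM (a log2 change of 3.99 ± 0.40 SE, limma adjusted p = 0.0276). The ratio of Rsad2 to Cmpk2 FPKM was 0.978 with PBS and 4.15 and 3.54 with WT pristane, so the neighbours did not keep the same ratio.

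The Ifit genes rose from very low levels. Ifit1 went from 1.86 FPKM to 50.1 and 49.8 FPKM (a log2 change of 4.15 ± 0.23 SE, limma adjusted p = 0.0236), and its WT pristane libraries were nearly equal. Ifit2 went from 1.83 FPKM to 19.5 and 44.4 FPKM (a log2 change of 3.43 ± 0.56 SE, limma adjusted p = 0.0440), with replicate 2 at 2.28 times replicate 1. Ifit3 went from 0.234 FPKM to 13.1 and 16.5 FPKM (a log2 change of 3.67 ± 0.29 SE, limma adjusted p = 0.0247). The Ifit1 to Ifit3 ratio was 3.83 and 3.02 in these libraries, and Ifit3 was the lowest of the 3 in each. Ifit2 lost its call with a pseudocount of 0.1 FPKM and with no filter on low values.

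Isg15, Rtp4 and Bst2 rose from higher starting levels. Isg15 went from 8.34 FPKM to 129 and 176 FPKM (a log2 change of 4.02 ± 0.42 SE, limma adjusted p = 0.0291). Rtp4, a chaperone that carries receptors to the cell surface and restricts some RNA viruses, went from 17.0 FPKM to 129 and 135 FPKM (a log2 change of 2.88 ± 0.19 SE, limma adjusted p = 0.0247). Bst2 went from 54.3 FPKM to 378 and 256 FPKM (a log2 change of 2.50 ± 0.30 SE, limma adjusted p = 0.0312). Bst2 was 1.48 times higher in WT pristane replicate 1 than in replicate 2, and apart from a nearly equal Ifit1 the other genes were all higher in replicate 2.

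Mx1 and Mx2 did not pass the test in this comparison. Mx1 stood at 0.660 FPKM with PBS and at 6.34 and 27.8 FPKM with WT pristane (a log2 change of 3.13 ± 0.88 SE, limma adjusted p = 0.0989), so replicate 2 was 4.39 times replicate 1. Mx2 stood at 0.561 FPKM with PBS and at 0.597 and 3.55 FPKM with WT pristane (a log2 change of 0.79 ± 0.68 SE, limma adjusted p = 0.458), with replicate 2 at 5.95 times replicate 1. The Mx genes had the widest spread between the WT pristane libraries of the 10, and for Mx2 replicate 1 was hardly above the PBS library.

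The order of levels in WT pristane was led by Bst2 with a mean of 317 FPKM, and its lower library (256 FPKM) was above the highest value of any other gene of the set. Isg15 (mean 153), Rsad2 (149) and Rtp4 (132 FPKM) followed with ranges that overlapped. Ifit1 (50.0 FPKM) came next and did not overlap Cmpk2 (39.5 FPKM), while the ranges of Cmpk2 and Ifit2 (32.0), of Ifit2 and Mx1 (17.1) and of Mx1 and Ifit3 (14.8 FPKM) overlapped. Mx2 was lowest at 2.07 FPKM and did not overlap its neighbour. Bst2 made up 61.9% of the summed FPKM of the 10 genes with PBS and 42.6% and 27.7% with WT pristane.

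**Figure D2:**
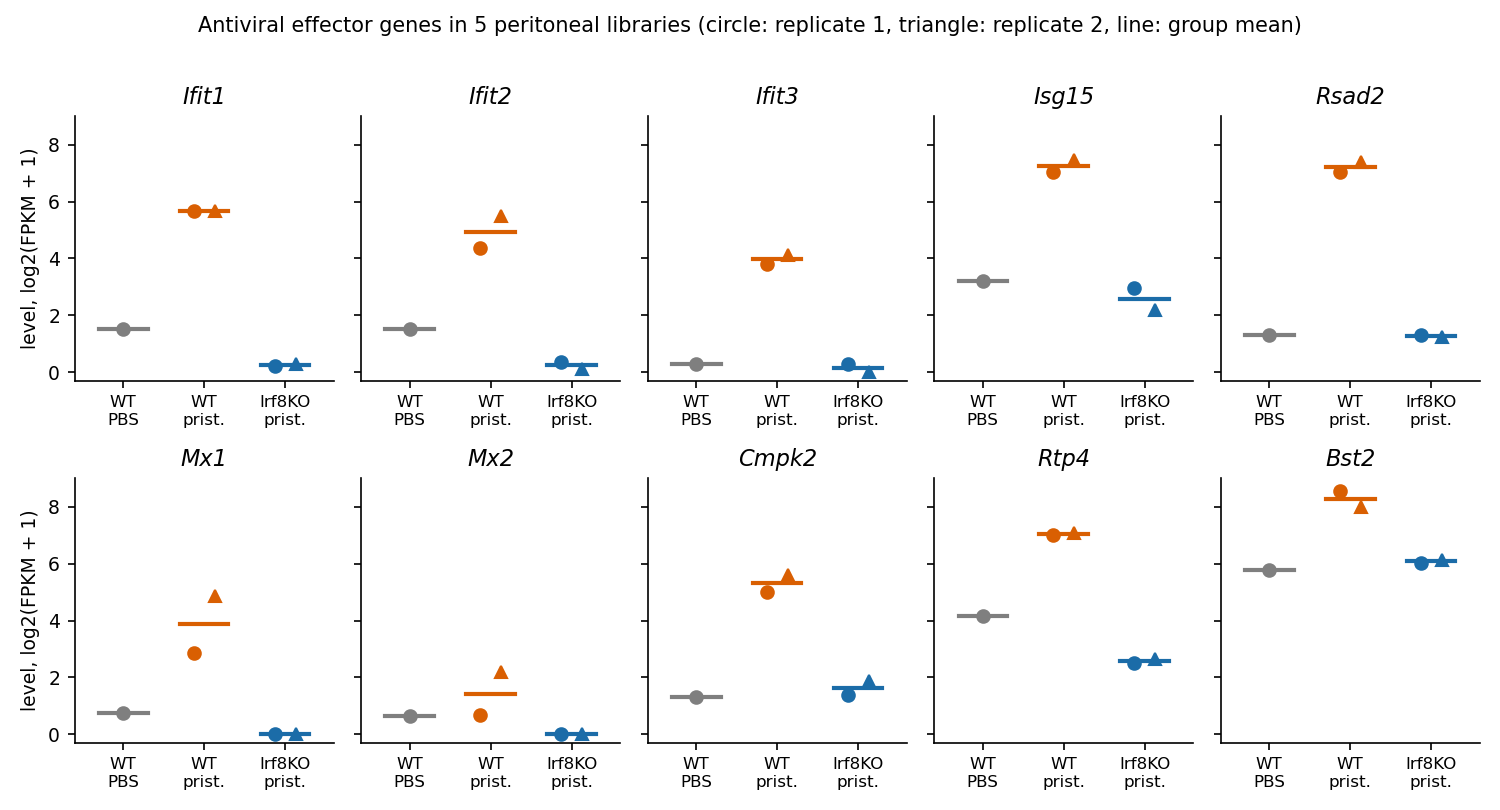
Level of each gene in each library as log2(FPKM + 1) on the y axis, with 1 panel per gene and the 3 groups on the x axis. Circles are replicate 1, triangles replicate 2 and lines group means. In every panel both Irf8KO pristane points lie below both WT pristane points, and in 7 panels both lie below the single PBS point.

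In the Irf8KO-labelled libraries these genes stood far below their WT pristane level. This comparison asks which RNA levels after pristane differ in mice described as Irf8-deficient. Without Irf8KO mice given PBS, a different response to pristane and a different starting level cannot be told apart. All 10 genes were lower in both Irf8KO-labelled libraries than in both WT pristane libraries, as were 27.1% of all genes tested. Ifit1, Rtp4 and Rsad2 passed an adjusted p under 0.05 as lower, 3 of 10, and they were also the only genes of the 11117 tested to do so (0.0270%, limma). A further 6 of the 10 had adjusted p-values from 0.0541 to 0.123, and 9 of 10 had an unadjusted p under 0.05, beside 10.1% of all genes in the same direction. The median log2 change of the 10 genes was -4.17, beside 0.00 over all genes. Among all genes ordered by log2 change, Rsad2 stood 2nd from the lowest, Ifit1 4th, Ifit2 12th, Isg15 13th and Rtp4 15th. The summed level of the 10 genes was 80.0 and 82.6 FPKM, against 887 and 926 FPKM in WT pristane. In bulk RNA, fewer cells that express a gene and less RNA per cell cannot be told apart.

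The count of calls changed with the genes and libraries that entered the fit, and with other settings given in the last section. When genes had to reach 1 FPKM in a pristane library, which leaves out 686 genes that reached it with PBS only, 9 of 10 passed as lower, beside 2.19% of the 10431 genes then tested. This filter was chosen after the data were seen. With a mean of at least 5 FPKM over all libraries, which leaves out Mx2, 8 of the 9 genes tested passed as lower, beside 2.32% of all genes. In the planned fit of the 4 pristane libraries alone the same 9 passed, beside 2.15% of all genes, with adjusted p-values from 0.00122 to 0.0291, and Mx2 did not (adjusted p = 0.190). Leaving out any 1 pristane library left 0 calls by limma (of 10 genes tested, or of 9 without WT pristane replicate 2, where Mx2 was below the filter), with 8 to 10 at an unadjusted p under 0.05 and adjusted p-values from 0.141 to 0.640. The log2 changes themselves ranged from -1.43 to -6.14 across these fits and were negative for each gene in each fit that tested it.

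On the log2(FPKM + 1) scale Rsad2 had the largest difference between the pristane groups of the 10. It stood at 130 and 169 FPKM in WT pristane and at 1.48 and 1.33 FPKM in the Irf8KO-labelled libraries, a log2 change of -5.95 ± 0.21 (SE) with a limma adjusted p of 0.0368. The mean level was 106 times higher in WT. With a pseudocount of 0.1 FPKM the Rsad2 change was -6.62. Those of Ifit1 (-7.46), Mx1 (-7.07) and Ifit2 (-6.84) were then larger in size, so the ranking depends on the scale. Cmpk2 stood at 31.3 and 47.7 FPKM against 1.60 and 2.67 FPKM (a log2 change of -3.68 ± 0.33 SE, limma adjusted p = 0.0562). The ratio of Rsad2 to Cmpk2 FPKM was 0.923 and 0.497 in the Irf8KO-labelled libraries, beside 0.978 in the PBS library, and was below the 4.15 and 3.54 of WT pristane.

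The Ifit genes were close to the limit of detection in the Irf8KO-labelled libraries. Ifit1 fell from 50.1 and 49.8 FPKM in WT pristane to 0.153 and 0.221 FPKM, which corresponds to about 2.1 and 2 fragments (a log2 change of -5.42 ± 0.19 SE, limma adjusted p = 0.0368). Ifit2 stood at 19.5 and 44.4 FPKM against 0.292 and 0.0704 FPKM, the latter about 5.7 and 0.91 fragments (a log2 change of -4.70 ± 0.46 SE, limma adjusted p = 0.0577). Ifit3 stood at 13.1 and 16.5 FPKM against 0.212 FPKM and a listed 0, with about 1.9 fragments behind the first (a log2 change of -3.83 ± 0.24 SE, limma adjusted p = 0.0541). A direct ratio is not given for Ifit1, Ifit2 and Ifit3 here, since a few fragments decide the lower value. The replicates of each group lay far closer together than the groups for all 3 genes.

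Isg15, Rtp4 and Bst2 kept measurable levels in the Irf8KO-labelled libraries. Isg15 stood at 129 and 176 FPKM in WT pristane and at 6.72 and 3.55 FPKM in them (a log2 change of -4.68 ± 0.35 SE, limma adjusted p = 0.0541), a mean 29.7 times higher in WT. Rtp4 fell from 129 and 135 FPKM to 4.70 and 5.32 FPKM (a log2 change of -4.47 ± 0.16 SE, limma adjusted p = 0.0368), a mean 26.3 times higher in WT. Bst2 stood at 378 and 256 FPKM against 64.8 and 69.4 FPKM (a log2 change of -2.20 ± 0.25 SE, limma adjusted p = 0.0671). Its mean in the Irf8KO-labelled libraries was 21.2% of that in WT pristane, the largest remaining share of the 10, where the other 9 ran from a listed 0 to 5.41%. Bst2 made up 81.0% and 84.1% of the summed FPKM of the 10 genes in these libraries.

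Mx1 and Mx2 were listed at 0 in both Irf8KO-labelled libraries, and a listed 0 can be a failed estimate, so no fold is given. Mx1 stood at 6.34 and 27.8 FPKM in WT pristane (a log2 change of -3.86 ± 0.72 SE, limma adjusted p = 0.123). Mx2 stood at 0.597 and 3.55 FPKM (a log2 change of -1.43 ± 0.55 SE, limma adjusted p = 0.261), and its lower WT value corresponds to about 6.1 fragments.

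**Figure D3:**
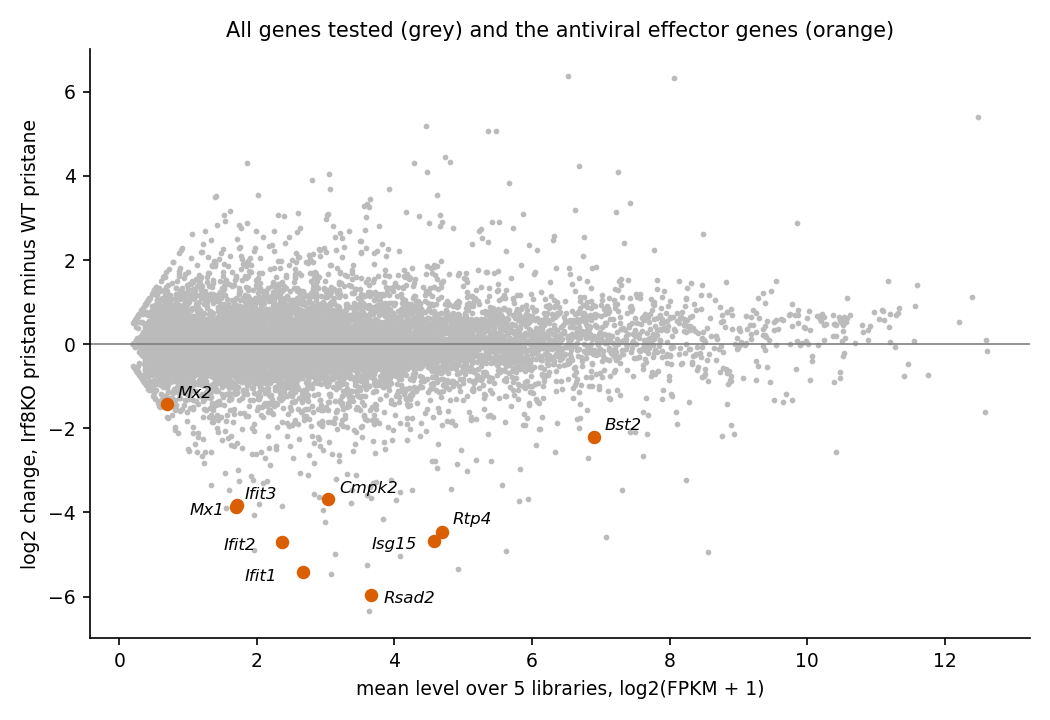
Each point is 1 of 11117 genes tested, with its mean level over the 5 libraries on the x axis and the log2 change of Irf8KO pristane minus WT pristane on the y axis. The 10 antiviral genes are in orange and range from -1.43 (Mx2) to -5.95 (Rsad2), while the median of all genes is 0.00.

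Against the PBS library, none of these genes passed the test as higher in the Irf8KO-labelled libraries. These values share the PBS library and the pristane libraries with the comparisons above and are given beside them. 1 of 10 genes passed as lower, beside 4.72% of all genes, and 0 passed as higher, beside 3.81%, with 0 at an unadjusted p under 0.05 in that direction, beside 15.6% (limma). The gene that fell was Rtp4, from 17.0 FPKM with PBS to 4.70 and 5.32 FPKM (a log2 change of -1.58 ± 0.19 SE, limma adjusted p = 0.0359). In this comparison 7 genes were lower in both libraries than with PBS, beside 46.0% of all genes, and 2, Cmpk2 and Bst2, were higher in both, beside 40.7%. The median log2 change of the 10 genes was -0.65, beside -0.05 over all genes. Leaving out any 1 pristane library ended the Rtp4 call, with log2 changes from -1.51 to -1.66.

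Single genes stood close to their PBS levels or under them. Ifit1 was at 1.86 FPKM with PBS and at 0.153 and 0.221 FPKM (a log2 change of -1.27 ± 0.23 SE, limma adjusted p = 0.0544), and Ifit2 at 1.83 FPKM against 0.292 and 0.0704 FPKM (limma adjusted p = 0.206). Isg15 was at 8.34 FPKM with PBS against 6.72 and 3.55 FPKM (a log2 change of -0.66, 95% interval -1.83 to 0.52). Rsad2 was at 1.47 FPKM with PBS and at 1.48 and 1.33 FPKM, 1 library on either side (a log2 change of -0.04, 95% interval -0.76 to 0.69). Bst2 stood at 54.3 FPKM against 64.8 and 69.4 FPKM (a log2 change of 0.30, 95% interval -0.53 to 1.14), and Cmpk2 at 1.50 FPKM against 1.60 and 2.67 FPKM (a log2 change of 0.31, 95% interval -0.80 to 1.42). Each of these intervals includes 0 and changes in either direction, so equal levels are not shown.

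**Figure D4:**
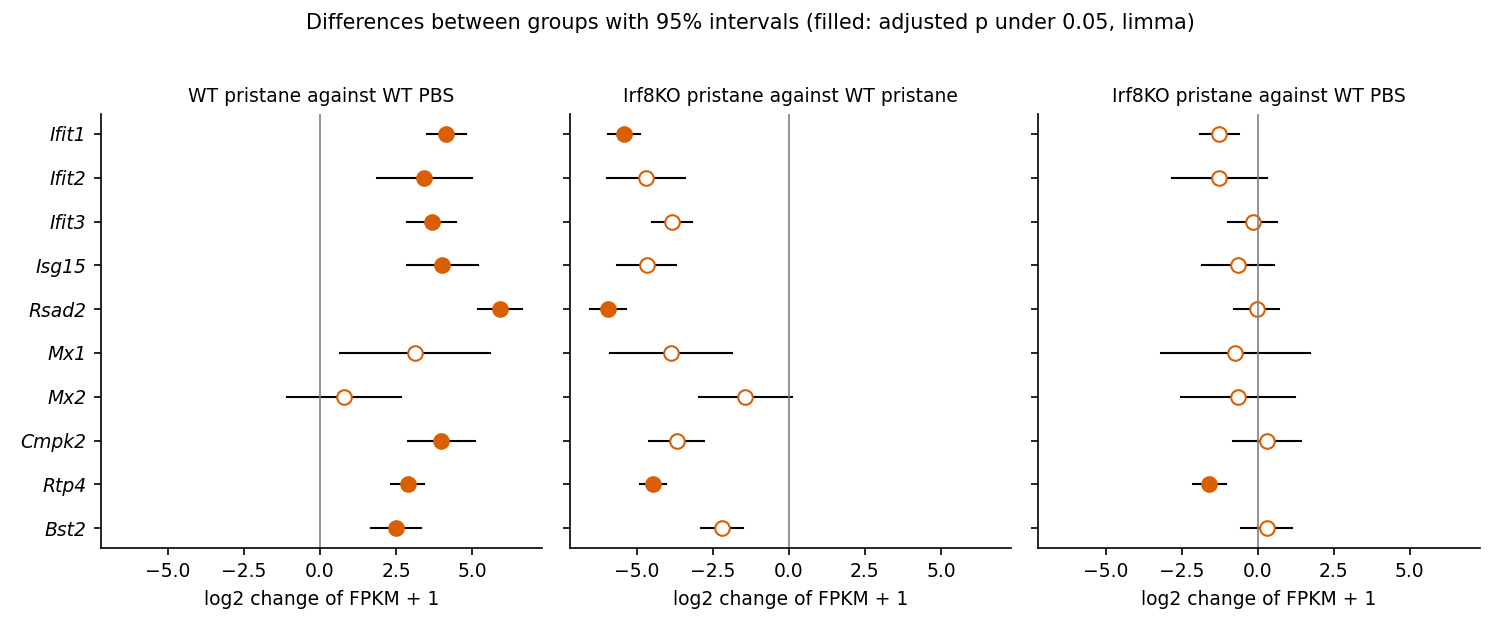
Log2 changes of the 10 genes in the 3 comparisons, with 95% intervals as lines and an adjusted p under 0.05 (limma) as a filled point. The left panel has 8 filled points to the right of 0, the middle panel 3 to the left, and the right panel 1, for Rtp4. The panels share libraries and are not independent of each other.

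Cell type markers also differed between the pristane groups. Of 10 inflammatory monocyte markers, 7 were lower in both Irf8KO-labelled libraries than in both WT pristane libraries (27.1% of all genes were) and 1 (Fn1) was higher in both (26.1% of all genes were). Their summed level was 2742 and 7029 FPKM in WT pristane against 2756 and 3102 FPKM, so the sums overlapped. Fn1 alone supplied 2335 and 2859 FPKM of the latter. Without it the sums were 1180 and 6102 FPKM against 421 and 243 FPKM, with no overlap. Fn1 was left out after the values were seen, as the marker that went the other way, so this sum is not separate support. Chil3, which was kept, supplied 88.9 and 4000 FPKM of the WT pristane sums and 120 and 69.6 FPKM of the Irf8KO-labelled ones. Ccr2, the chemokine receptor that brings monocytes out of the bone marrow, stood at 27.1 and 85.5 FPKM against 5.03 and 3.13 FPKM, and Ly6c2 at 145 and 296 FPKM against 42.9 and 19.8 FPKM. All 6 natural killer cell markers and all 6 T cell markers were lower in both Irf8KO-labelled libraries, with sums of 79.1 and 59.4 FPKM in WT pristane against 31.9 and 22.7 FPKM and of 109 and 72.7 FPKM against 41.2 and 32.7 FPKM. Markers of large peritoneal macrophages summed to 143 and 232 FPKM against 1592 and 2700 FPKM (9 of 10 higher in both and 1, Timd4, lower in both). The 9 mature neutrophil markers summed to 17180 and 15561 FPKM against 48408 and 24911 FPKM (5 higher in both and 1, Il1r2, lower in both). Bst2 also marks plasmacytoid dendritic cells in the mouse: of the 8 other markers of these cells 2 were lower in both Irf8KO-labelled libraries and 0 higher in both, and they summed to 27.4 and 7.38 FPKM against 57.1 and 20.5 FPKM. Without Ly6d, which B cells also express, the sums were 13.3 and 3.89 FPKM against 10.3 and 6.54 FPKM. This removal was also chosen after the values were seen. Klk1 was listed at 0 in all pristane libraries, and Siglech stood at 4.12 and 1.35 FPKM against 0.171 and 0.123 FPKM. The 7 B cell markers summed to 50.2 and 11.4 FPKM against 228 and 111 FPKM, and the 6 mast cell markers to 4.46 and 2.26 FPKM against 4.01 and 4.50 FPKM, with Mcpt4 at 0. With limma, 0 of the 58 markers tested had an adjusted p under 0.05 between the pristane groups, while at an unadjusted p under 0.05 there were 17 lower and 20 higher in the Irf8KO-labelled libraries, beside 10.1% and 10.5% of all genes. In the fit of the 4 pristane libraries alone 6 of 53 passed the adjusted threshold as lower and 13 as higher, beside 2.15% and 1.98% of all genes. Single markers were picked for mention after their values were seen, and the part of these cells in the antiviral results was not tested.

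The signalling genes upstream of the antiviral genes did not all move alike. Of 12 receptor and signalling genes, 0 passed an adjusted p under 0.05 between the pristane groups, 8 were lower and 1 higher at an unadjusted p under 0.05 (limma, beside 10.1% and 10.5% of all genes), and the median log2 change was -1.03. In the fit of the 4 pristane libraries alone 5 of 12 passed the adjusted threshold as lower, beside 2.15% of all genes, and after pristane in WT 3 of 12 rose past it, beside 5.18%. Irf7, the factor that amplifies interferon production, stood at 6.55 FPKM with PBS, 393 and 482 FPKM with WT pristane and 11.4 and 15.7 FPKM in the Irf8KO-labelled libraries. Usp18, which removes Isg15 from proteins and damps the receptor, stood at 1.63, then 51.6 and 84.2, then 0.859 and 1.41 FPKM in the same order. Stat2, a subunit of the complex that binds the ISRE, stood at 1.82, then 10.1 and 10.4, then 0.737 and 1.07 FPKM. The receptor chain Ifnar2 stood higher in both Irf8KO-labelled libraries than in WT pristane, at 70.9 FPKM with PBS, 96.5 and 65.3 FPKM with WT pristane and 132 and 199 FPKM in the Irf8KO-labelled libraries (a log2 change of 1.02 ± 0.32 SE between the pristane groups, unadjusted p = 0.0335 by limma).

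RNA for most of the interferons themselves was not seen, and Ifnb1 was highest in the PBS library. Of 21 interferon ligand genes, 18 were listed at 0 in all 5 libraries. Ifnb1 stood at 8.07 FPKM with PBS, 0.479 and 2.14 FPKM with WT pristane and was listed at 0 in both Irf8KO-labelled libraries. Ifna2 stood at 1.31 FPKM in WT pristane replicate 2 only, and Ifng at 0.476 and 1.42 FPKM in WT pristane and at 0 and 0.579 FPKM in the Irf8KO-labelled libraries. Ifnb1 was lower in Irf8KO pristane than with PBS (a log2 change of -3.18 ± 0.51 SE, limma adjusted p = 0.0457), and its change after pristane in WT was -2.07 ± 0.51 (SE, limma adjusted p = 0.0792, unadjusted p = 0.0152), opposite in sign to that of the 10 genes. The Ifnb1 call, like all others, was lost when any 1 pristane library was left out. Between the pristane groups none of the 3 passed an unadjusted p under 0.05 in the fit of all 5 libraries (limma), and Ifnb1 had an unadjusted p of 0.0493 in the fit of the 4 pristane libraries alone.

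The genes for attaching Isg15 to proteins, and Usp18, which removes it, had the same direction as Isg15. Usp18 is also counted among the receptor and signalling genes above. Of these 5 genes, Usp18 included, 0 passed an adjusted p under 0.05 between the pristane groups (limma). At an unadjusted p under 0.05, 5 were lower (limma, beside 10.1% of all genes), with a median log2 change of -2.06. In the fit of the 4 pristane libraries alone 4 of 5 passed the adjusted threshold as lower (beside 2.15%), and after pristane in WT 3 of 5 rose past it (beside 5.18%). The conjugating enzyme Ube2l6 stood at 11.1 FPKM with PBS, 60.4 and 82.5 FPKM with WT pristane and 9.89 and 9.13 FPKM in the Irf8KO-labelled libraries. The activating enzyme Uba7 stood at 11.3, then 20.1 and 22.6, then 5.29 and 4.32 FPKM, and the ligase Herc6 at 1.65, then 7.12 and 8.35, then 0.961 and 1.24 FPKM. The changes of these 3 genes between the pristane groups (-2.77, -1.95 and -2.06 on the log2 scale) were smaller in size than that of Isg15 (-4.68), a difference that was not tested.

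The relatives in the Ifit cluster were low and less regular. Ifit3b (listed as I830012O16Rik) reached 5.19 and 4.41 FPKM with WT pristane and was listed at 0 in the other 3 libraries. Ifit1bl1 (listed as Gm14446) stood at 1.39 FPKM with PBS, 2.22 and 22.9 FPKM with WT pristane and 0.0936 and 0 FPKM in the Irf8KO-labelled libraries, so the WT replicates differed widely. Ifit1bl2 (listed as 2010002M12Rik) stood at 2.67 and 0.508 FPKM with WT pristane and 0.407 and 0.420 FPKM in the Irf8KO-labelled libraries, and was listed at 0 with PBS. Between the pristane groups 0 of 3 passed the adjusted threshold and 2 were lower at an unadjusted p under 0.05 (limma, beside 10.1% of all genes). In the fit of the 4 pristane libraries alone 1 of 3 passed as lower, beside 2.15% of all genes. After pristane in WT 1 of 3 rose past the adjusted threshold, beside 5.18%.

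Among 28 other antiviral effectors most went the way of the 10 genes. Ifi44l was listed at 0 throughout, and of the 27 tested 17 rose past the adjusted threshold after pristane in WT, beside 5.18% of all genes. Between the pristane groups 0 passed it, 23 were lower and 0 higher at an unadjusted p under 0.05 (limma, beside 10.1% and 10.5% of all genes), and the median log2 change was -1.94. In the fit of the 4 pristane libraries alone 19 of 27 passed it as lower, beside 2.15%. Oasl1, an inhibitor of Irf7 translation, stood at 1.96 FPKM with PBS, 112 and 99.1 FPKM with WT pristane and 1.28 and 2.41 FPKM in the Irf8KO-labelled libraries. Oas3, which senses double-stranded RNA, stood at 3.38, then 96.8 and 86.0, then 8.39 and 6.45 FPKM, and Oasl2 at 3.48, then 98.3 and 65.5, then 5.53 and 4.90 FPKM. Ifi27l2a had the highest mean of the list in WT pristane with 3336 and 1365 FPKM in WT, against 349 FPKM with PBS and 73.6 and 63.8 FPKM in the Irf8KO-labelled libraries. Ifitm3, a membrane protein that blocks virus entry, stood at 417 FPKM with PBS, 1951 and 1462 FPKM with WT pristane and 740 and 605 FPKM in the Irf8KO-labelled libraries.

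Other Ifitm genes did not have the pattern of the 10 genes, and they are named after their values were seen. Ifitm1, listed at 0 with PBS, reached 312 and 129 FPKM with WT pristane and 625 and 376 FPKM in the Irf8KO-labelled libraries. Ifitm2 stood at 80.1, then 369 and 224, then 473 and 315 FPKM, and Ifitm6 at 79.0, then 235 and 447, then 563 and 371 FPKM. In the fit of all libraries, none of these 3 differed between the pristane groups at an unadjusted p under 0.05. The p-values were 0.0774, 0.303 and 0.303 (limma). In the fit of the pristane libraries alone, Ifitm1 was higher in the Irf8KO-labelled libraries. Its log2 change was 1.27, with an unadjusted p of 0.0340 and an adjusted p of 0.186 (limma). Ifitm2 and Ifitm6 had unadjusted p-values of 0.255 and 0.240 in that fit (limma). Each of these 3 genes was higher in both pristane groups than with PBS.

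**Figure D5:**
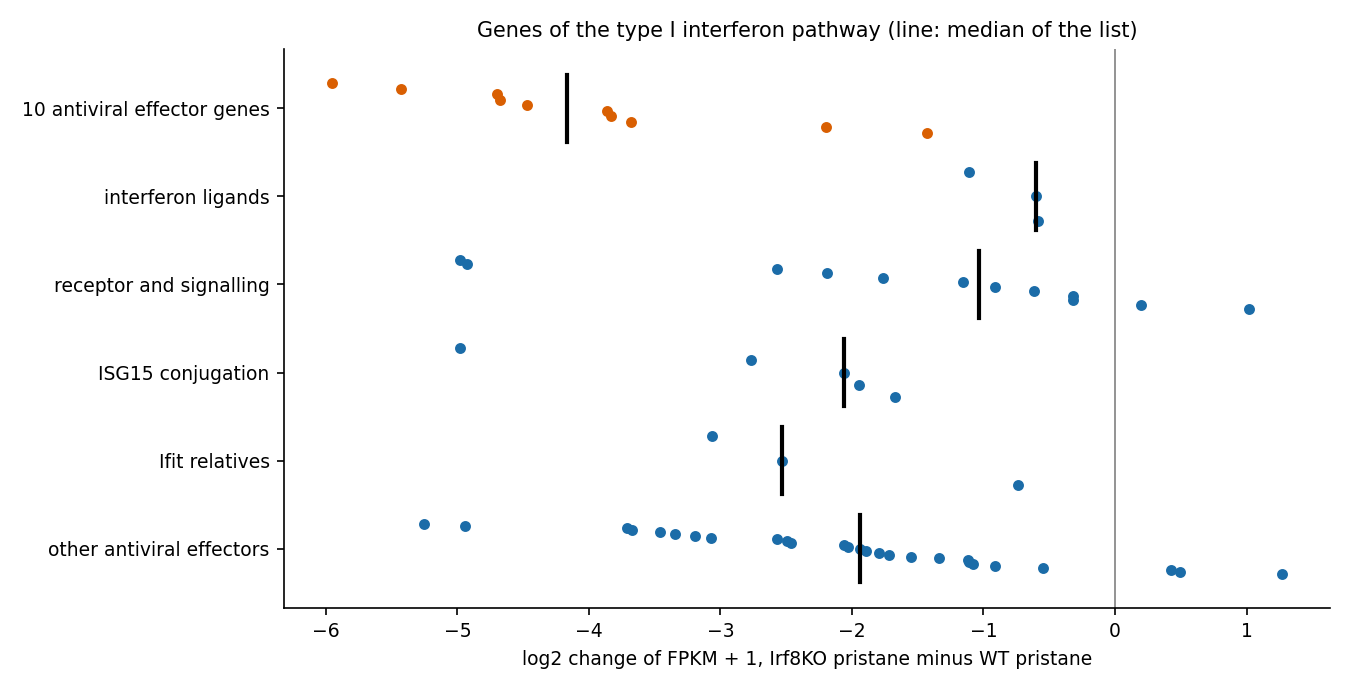
Log2 change of Irf8KO pristane minus WT pristane on the x axis for each tested gene of the 10 antiviral genes (orange) and of 5 lists of the interferon pathway (blue). Vertical lines are medians, from -4.17 for the 10 genes to -0.60 for the ligands, and the points to the right of 0 are Irf3, Ifnar2, Ifitm1, Ifitm2 and Ifitm6.

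Genes outside the set with the most similar pattern were found by the root mean square (RMS) difference between centred log2(FPKM + 1) profiles over the 5 libraries, measured from the median profile of the 10 genes. Among 10510 genes compared, the closest were Zbp1, a sensor of nucleic acids in cell death (RMS difference 0.323), Gdf3, a growth factor of the TGF-beta family (0.351), AI607873 (0.373), Ifi204, a DNA sensor of the Ifi200 family (0.406), and Phf11d (0.422). As the 5 were picked by this pattern, their values describe the choice and are not a separate result. Each of the 5 was higher in both WT pristane libraries than in the other 3 libraries. All but Ifi204 were lower in both Irf8KO-labelled libraries than with PBS. Zbp1 stood at 31.8 FPKM with PBS, 249 and 260 FPKM with WT pristane and 21.3 and 16.9 FPKM in the Irf8KO-labelled libraries. Gdf3 stood at 0.659, then 8.88 and 12.7, then 0.0993 and 0 FPKM. Of the 10 genes, Ifit3 was closest to their median profile (0.226), and Mx2 (1.37), Rsad2 (1.00) and Bst2 (0.968) were farthest from it.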

How the data were processed

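The authors deposited 1 table of FPKM values with 1 column per library. Its name calls it a count table, but its values are not whole numbers. Without giving roles, the submitters' processing notes list TopHat2 2.0.10, BWA, Cuffnorm and Cufflinks 2.2.1. Nothing in the labels states the genome build, the annotation or any scaling between libraries. The 11117 genes that reached 1 FPKM in any library were tested with limma 3.58.1 (limma-trend, R 4.3.3) on log2(FPKM + 1), with 3 group means and 5 libraries in 1 fit (2 residual and 1.99 prior degrees of freedom). P-values are 2-sided, with Benjamini-Hochberg adjustment over all genes, and the threshold is 0.05. The 10 genes, lists and tests were chosen with earlier results of these data known. From each pathway list up to 4 genes with the smallest p between the pristane groups and the 2 most abundant are named, and 5 genes by pattern; 1 gene that this rule names is not reported here. The fit was tested on simulated data. Fragment numbers are estimates: in genes with 1 GENCODE M21 transcript of at least 1 kb, the commonest product of value and length under 0.3 FPKM was read as 1 fragment, and 62.1% to 80.6% of products near 1 or 2 lay within 0.15 of it. Older symbols were matched through RefSeq synonyms (Emr1 for Adgre1), while Ly6g and Ighm were not matched. Proteins were not compared. Alternatives were other pseudocounts (0.1 and 5 FPKM), filters, scaling, no trend, a replicate block and leaving out each pristane library.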

Additional observations from a re-analysis of the deposited data

How the results depend on the processing

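The direction of the 10 genes held under every alternative that tested them (Mx2 was not tested with a mean of at least 5 FPKM or without WT pristane replicate 2), except for Rsad2 in Irf8KO pristane against PBS, whose log2 change was 0.0094 with median-ratio scaling and ran from -0.084 to 0.0068 when an Irf8KO pristane replicate was left out. The calls did not hold as well. Between the pristane groups, where 3 genes passed in all and all 3 belong to the set, a pseudocount of 0.1 FPKM gave 0 genes and 0 of the 10 (median log2 change -5.65), one of 5 FPKM gave 5 genes (median -2.68), no filter gave 0 genes and 0 of the 10, a mean of at least 5 FPKM gave 242 genes and 8 of the 10, no trend gave 40 genes, the 4 pristane libraries alone gave 431 genes and 9 of the 10, and a filter on the pristane libraries, chosen after seeing the data, gave 437 and 9. For WT pristane against PBS the median log2 change was 4.15 and 2.53 with pseudocounts of 0.1 and 5 FPKM. For Irf8KO pristane against PBS it was -1.33 and -0.17, and no trend gave 623 genes against 949. Ifit1 and Rtp4 passed, 2 of the 10, with a pseudocount of 0.1 FPKM, beside 641 of all 11117 genes in either direction. The same 2 passed with a mean of at least 5 FPKM (of 9 tested, beside 933 of 5894 genes) and with the filter on pristane libraries (of 10 tested, beside 1195 of 10431 genes). Leaving out any 1 pristane library gave 0 genes, and 0 of the 10, in each comparison, and medians from -4.68 to -4.11 between the pristane groups, 3.51 to 4.06 for WT pristane against PBS and -0.69 to -0.46 for Irf8KO pristane against PBS. Each of these fits has 1 residual degree of freedom. Replicate numbers are shared by the pristane groups, but the labels do not say what a number means, and the difference of replicate 1 minus 2 correlated at 0.045 across genes between the groups. With the number as a replicate block, 0 genes and 0 of the 10 passed in each of the 3 comparisons. About 2 fragments stand behind the Ifit1 values of the Irf8KO-labelled libraries, so depth limits the size of its change. The causes of the other moves were not tested.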
